A study of Mus musculus with 12 samples.

Results

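The comparison described here is between CD11bhi CD14hi monocyte-derived dendritic cells (CD14hi moDC) and CD11bhi CD14lo conventional dendritic cells (CD14lo cDC) of the mouse lung, which the labels name as separate sorted populations. The members were chosen by those labels, 3 arrays of each population, so 6 of the 12 arrays of the series, and every gene that passed the signal filter was compared. All mice were C57BL/6J males 8 to 12 weeks old that had received 100 ng of lipopolysaccharide, a bacterial cell wall component, and 100 ug of ovalbumin, a foreign protein, into the airway in 50 ul of buffer. Cells were sorted 16 h later at a purity above 93%, so both populations come from lungs exposed to lipopolysaccharide and no untreated lung is among the arrays. Each replicate was a pool of 20 mice, and p-values measure the spread between such pools. The labels do not say if arrays that bear one replicate number in different populations share mice. The populations are defined by surface markers at the sort, not by a tracer of their origin. The other 6 arrays, of Ly6Chi monocyte-derived cells (Ly6Chi moDC) and CD103+ conventional cells (CD103+ cDC) sorted from mice treated in the same way, were part of the same fit and serve below as a second pair of a monocyte-derived and a conventional population.

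Conventional dendritic cells arise from a dedicated bone marrow precursor and carry antigen from the lung to lymph nodes, where they prime T cells. Monocyte-derived cells enter tissue from the blood and, beside presenting antigen, take up debris, secrete chemokines and take part in tissue repair. Both populations compared here were sorted as CD11bhi, and CD14, a co-receptor for lipopolysaccharide, was the surface protein that separated them. A gene's level is given as its MAS5 signal, an array intensity in arbitrary units on a linear scale. A difference is given as log2 of the signal raised by a pseudocount of 50, CD14hi moDC minus CD14lo cDC, with the SE of the limma fit, and folds come from that scale, so folds of dim genes are understated. A gene was called at a limma adjusted p under 0.05 (Benjamini-Hochberg).

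Arrays of the same population correlated across genes at 0.977 to 0.981 in CD14hi moDC and 0.973 to 0.981 in CD14lo cDC, and arrays of different populations at 0.916 to 0.948. These correlations are across genes, which are not independent replicates, and the number of arrays limits the precision. The 3' to 5' signal ratio of Gapdh, a measure of RNA integrity, overlapped between the populations (1.52 to 1.80 in CD14hi moDC and 1.55 to 2.29 in CD14lo cDC). In the second pair it was 3.26, 1.68 and 3.27 in CD103+ cDC and 1.60, 1.48 and 1.91 in Ly6Chi moDC. The same ratio of Actb was 1.12, 0.97 and 1.03 in CD103+ cDC. What RNA integrity adds to differences from CD103+ cDC was not tested. The sort marker Cd14 was 7.34-fold higher in CD14hi moDC, with arrays from 9409 to 14322 against 1257 to 1714. Itgam, which encodes CD11b, had 1480, 1493 and 1470 against 859, 1231 and 1254; these arrays did not overlap, but the gene was not called (log2 difference 0.41 ± 0.18, limma adjusted p = 0.15). Itgax, which encodes CD11c, had 8570 to 9791 against 8120 to 9558 and was not called either (0.06 ± 0.12, adjusted p = 0.78).

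Of 10934 genes tested, 1770 (16.2%) were called, 1010 higher (9.24%) and 760 lower (6.95%) in CD14hi moDC. Arrays of the populations did not overlap for 998 of the higher (9.13%) and 740 of the lower genes (6.77%). At least 2-fold differences were found for 523 higher (4.78%) and 240 lower genes (2.19%). The median difference of all genes was -0.01. For gene lists below, the percent of tested members called stands against the 16.2% of all genes. The balance of directions changed with the scaling: with each array centred at the median of all its probe sets, where the median of all genes moved to -0.11, 792 genes were higher and 946 lower. Only 502 lower genes were called without CD14hi moDC replicate 1; leaving out each of the other 5 arrays moved no such count by more than 1.5-fold. On these bulk samples, fewer cells of a type and less RNA per cell cannot be told apart.

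Outside the chemokine, complement and lineage genes, the 15 largest rises in CD14hi moDC ran from 10.8-fold (Klhl13) to 39.2-fold (Igf1). They ranged over genes of many functions, among them a growth factor, a transporter, a collagenase and an intermediate filament protein. The insulin-like growth factor gene Igf1 had signals of 3840, 3947 and 3502 in CD14hi moDC against 36.6, 33.4 and 77.1 in CD14lo cDC. The uptake transporter gene Slco2b1, which carries organic anions such as steroid conjugates, had 2487, 2969 and 2007 against 50.5, 48.1 and 23.9 (log2 difference 4.80 ± 0.23, 27.9-fold, adjusted p = 2.4e-10). Nes, which encodes the intermediate filament protein nestin of progenitor cells, had 2110, 2349 and 1976 against 42.7, 55.3 and 53.0 (4.45 ± 0.26, 21.9-fold). The groups lay more than an order of magnitude apart on every array for each of these genes. Speg, which encodes a muscle protein kinase, was 24.4-fold higher with 2006, 1285 and 1367 against 40.8, 6.20 and 2.69, and the mucin-like gene Mucl1 19.9-fold with 1820, 2101 and 1439 against 84.1, 26.2 and 24.5. Tcim, a regulator of transcription, had 837, 762 and 745 against 1.10, 1.80 and 1.19 (16.2-fold), and Col14a1, a collagen of the fibril surface, 844, 820 and 526 against 10.3, 8.08 and 10.2 (12.9-fold).

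Several of these genes were low in the other populations of the series too. Of the 15 largest rises, 5 (Nes, Mucl1, Tcim, Col14a1 and Klhl13) were above the array median on CD14hi moDC arrays alone, so they entered the test only through the group where they are high. They were picked from the genes called in that same fit, so their folds above are no separate support. Their signals in the other populations are given as a description, with no test. Nes reached at most 80.8 in Ly6Chi moDC and 49.9 in CD103+ cDC, Speg 36.6 and 87.8, Tcim 13.8 and 10.4, and Col14a1 14.8 and 10.5. The ubiquitin ligase adaptor gene Klhl13 had 882, 862 and 366 in CD14hi moDC and at most 40.2 on any other array. Speg was above the array median on 1 CD103+ cDC array besides the 3 of CD14hi moDC, and the filter needs 3 arrays. It too therefore entered the test only through CD14hi moDC, and its signals are likewise a description. Slco2b1 passed the filter through Ly6Chi moDC as well. For Slco2b1, CD14hi moDC exceeded Ly6Chi moDC by 3.80 on the log2 scale. No difference between Ly6Chi moDC and CD103+ cDC was called for Slco2b1 (limma adjusted p = 0.080). The difference of the differences between the pairs was called for it, at 4.29 ± 0.33. That contrast and the one with Ly6Chi moDC use the CD14hi moDC arrays on which Slco2b1 was picked, so they are no separate support. Speg had 4 probe sets that passed the filter, of which 3 were called. Of the 1010 genes higher in CD14hi moDC than in CD14lo cDC, 313 (2.86% of the genes tested) were also called higher than in Ly6Chi moDC. For 180 (1.65%) CD14lo cDC was in turn called lower than CD103+ cDC. These contrasts share arrays with the first, and the share of all genes called in them was not counted, so both counts are a description.

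Other genes of large rise had high signals in Ly6Chi moDC as well. Olfml3, a secreted matrix-associated protein gene and second of the rises at 30.2-fold, had 3319, 4153 and 2587 against 62.3, 52.8 and 68.0, and 1297 to 2196 in Ly6Chi moDC. The integrin alpha 9 gene Itga9 had 2801, 2310 and 1926 against 111, 74.3 and 218 (13.5-fold) and 1306 to 1977 in Ly6Chi moDC. Rnase4, a secreted ribonuclease gene, was 10.9-fold higher than in CD14lo cDC, yet higher again in Ly6Chi moDC (2725 to 3887 against 1466 to 2310). The myelin membrane protein gene Pmp22 (14.3-fold), the filamin-binding protein gene Fblim1 (12.6-fold) and the collagenase gene Mmp13 (19.2-fold, 1414, 927 and 920 against 11.5, 10.4 and 2.67) were intermediate in Ly6Chi moDC, at 200 to 417, 226 to 278 and 124 to 206.

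In the other direction, the 15 largest falls ran from 4.84-fold (H2-Oa) to 25.9-fold (Cd7), and several encode surface receptors. Cd7, an immunoglobulin family receptor gene of T and NK cells, had 1299, 2422 and 1637 in CD14lo cDC and 36.5, 8.10 and 14.2 in CD14hi moDC. Ffar2, which encodes a receptor for short-chain fatty acids, had 1194, 1359 and 1249 against 83.6, 30.0 and 54.2 (log2 difference -3.67 ± 0.23, adjusted p = 4.1e-09). Klra17, of the Ly49 family of lectin-like receptors, had 985, 1421 and 1328 against 156, 88.0 and 131 (-2.89 ± 0.26, adjusted p = 2.3e-07). All 3 were also low in the remaining populations, where no array exceeded 204 for Cd7, 167 for Ffar2 and 88.5 for Klra17. CD14lo cDC exceeded CD103+ cDC by 4.04, 3.56 and 4.08 on the log2 scale for them. The 3 genes were picked for their difference on the same CD14lo cDC arrays, so these values are a description and no separate support.

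Pram1, an adaptor gene of myeloid signalling, had 1743, 2098 and 1739 in CD14lo cDC against 205, 327 and 450 (5.23-fold lower in CD14hi moDC). The interferon-inducible membrane protein genes Ifitm6 and Ifitm1 were 5.50-fold and 4.85-fold lower, Ifitm1 with 6171, 5203 and 6368 against 1264, 823 and 1550. The largest falls were chosen among genes whose groups did not overlap, so the lack of overlap is no added result. Tbc1d10c, which encodes carabin, an inhibitor of calcineurin and Ras, had 426, 540 and 418 against 6.67, 53.4 and 44.0 and was higher still in CD103+ cDC (602 to 1144). The integrin beta 7 gene Itgb7 was 5.27-fold lower in CD14hi moDC (767 to 1594), and its signals overlapped between CD103+ cDC (5553 to 6725) and CD14lo cDC (5205 to 6641). Of the 760 lower genes, 284 (2.60% of the genes tested) were also called higher in CD14lo cDC than in CD103+ cDC. For 175 (1.60%) CD14hi moDC was also called lower than Ly6Chi moDC. Here too the contrasts share arrays with the first and have no share of all genes beside them, so the counts are a description.

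**Figure D1:**
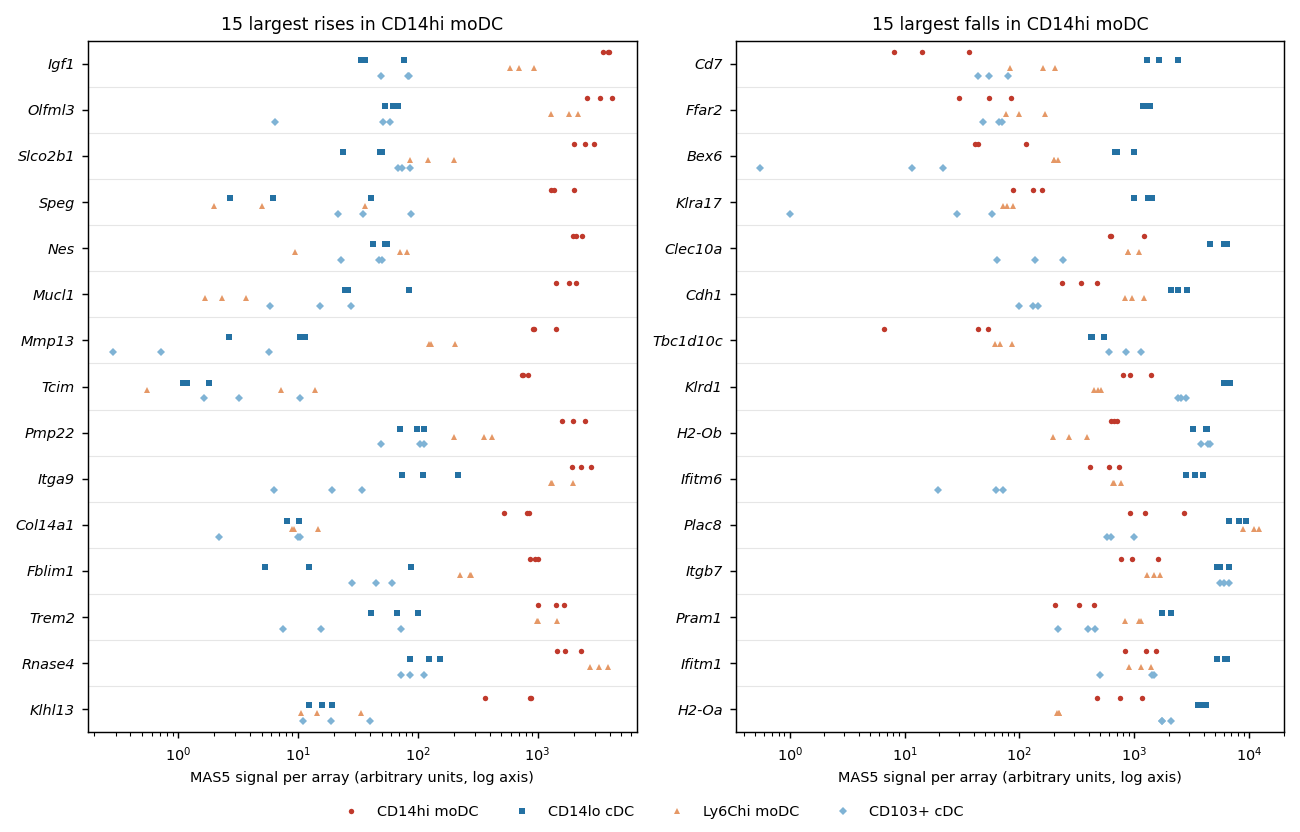
MAS5 signal on each of the 12 arrays (log axis, arbitrary units) of 15 genes that rose and 15 that fell farthest in CD14hi moDC, with the populations marked by colour and shape. Nes, Speg, Mucl1, Tcim, Col14a1 and Klhl13 are high on the 3 CD14hi moDC arrays and at most 87.8 on the 9 others, whereas Olfml3, Itga9, Trem2 and Rnase4 are high on the Ly6Chi moDC arrays too.

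Promoter sequence was read for the genes of largest difference, to show what lies before their starts. RefSeq promoter windows on GRCm38.p6 matched 12 of the 15 rises and 10 of the 15 falls, and the 250 bases before each start were searched on both strands for the letters of 6 known motifs. Shown are the 3 rising genes with a lone window that holds the AP-1 letters TGANTCA and, of the falls, Klra17, all written 5′ to 3′ on the gene's strand with matched motif letters in capitals. They lie at chr10:87860861-87861110 (plus strand, Igf1), chr9:7272264-7272513 (plus, Mmp13), chr17:48346151-48346400 (plus, Trem2) and chr6:129876673-129876922 (minus, Klra17).
Igf1: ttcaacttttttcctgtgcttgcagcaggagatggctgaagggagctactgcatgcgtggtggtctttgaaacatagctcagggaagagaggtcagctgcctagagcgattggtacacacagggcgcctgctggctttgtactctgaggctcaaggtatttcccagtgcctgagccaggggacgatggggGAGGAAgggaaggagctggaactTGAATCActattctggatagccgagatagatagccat
Mmp13: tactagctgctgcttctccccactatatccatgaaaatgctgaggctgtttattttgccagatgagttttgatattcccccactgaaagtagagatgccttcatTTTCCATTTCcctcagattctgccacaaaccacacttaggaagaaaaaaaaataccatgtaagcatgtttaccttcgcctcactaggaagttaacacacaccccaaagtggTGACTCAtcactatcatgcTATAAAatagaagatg
Trem2: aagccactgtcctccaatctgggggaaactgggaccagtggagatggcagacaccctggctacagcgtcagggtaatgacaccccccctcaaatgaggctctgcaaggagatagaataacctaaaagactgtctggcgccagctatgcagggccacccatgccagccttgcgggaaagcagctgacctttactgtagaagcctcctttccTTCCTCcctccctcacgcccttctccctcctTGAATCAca
Klra17: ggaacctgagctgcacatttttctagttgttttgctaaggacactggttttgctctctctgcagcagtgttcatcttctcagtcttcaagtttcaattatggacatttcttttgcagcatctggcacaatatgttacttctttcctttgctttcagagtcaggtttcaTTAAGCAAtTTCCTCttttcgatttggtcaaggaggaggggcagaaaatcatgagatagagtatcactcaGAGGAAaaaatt
The AP-1 letters begin 37 bases before the start in Igf1, 35 in Mmp13 and 9 in Trem2. A PU.1-type match, GAGGAA, begins 60 bases before the start in Igf1, 40 in Trem2, and 73 and 12 in Klra17, which also holds a C/EBP match, TTGCNNAA, at 82. Mmp13 holds a TATA box match, TATAAA, at 16, and an interferon response element core, GAAANN followed by GAAA, at 146. No printed match overlaps another motif, and none of the 4 windows holds the E-box CACGTG.

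These letters are common. Among all 32851 promoter windows, 6.75% hold TGANTCA, 23.3% GAGGAA, 9.56% TTGCNNAA, 12.4% TATAAA, 2.98% the interferon response element core and 6.02% CACGTG. Among tested genes with a lone window, TGANTCA was found for 34 of 608 called higher (5.59%), 22 of 460 called lower (4.78%) and 275 of all 7109 (3.87%). GAGGAA was found for 27.3%, 25.7% and 22.6% of them, and TTGCNNAA for 10.4%, 5.87% and 7.13%. A match describes the letters and is neither a binding site nor a cause of these signals.

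Growth factor and matrix genes rose together. Growth factors of this kind act on fibroblasts, epithelium and vessels in repair, and the matrix list holds structural proteins and the proteases that cut them. Of 29 growth factor genes listed, 18 were tested and 14 were called higher and none lower, against 9.24% of all genes called higher, with a median log2 difference of 1.17 against -0.01 for all genes. Besides Igf1, the platelet-derived growth factor gene Pdgfc had 544, 551 and 390 against 24.3, 16.5 and 20.7 (7.66-fold). Pdgfc was above the array median on 2 Ly6Chi moDC arrays besides the 3 of CD14hi moDC, and the filter needs 3 arrays. It therefore entered the test only through CD14hi moDC, and its signals are a description. Pdgfa had 884, 878 and 636 against 157, 111 and 173 (4.31-fold). Inhba, which encodes the activin A subunit, had 1097, 410 and 908 against 161, 36.1 and 98.4 (5.72-fold), and the hepatocyte growth factor gene Hgf 292, 374 and 462 against 80.7, 105 and 64.6 (3.17-fold). No array of CD14hi moDC fell into the range of CD14lo cDC for any of these genes. In Ly6Chi moDC Pdgfc was at 52.8 to 111 while Inhba, Pdgfa and Hgf were called higher there than in CD14hi moDC, at 1324 to 4217, 1264 to 1729 and 650 to 815 (adjusted p = 0.013, 0.0032 and 0.016). Tgfb1, with 3312 to 4273 against 3240 to 4915, was not called (adjusted p = 0.72).

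Of the 29 tested matrix genes, 19 were called higher and none lower (65.5% called, median 0.90). Timp2, an inhibitor of matrix metalloproteinases, had 5041, 5349 and 3478 against 581, 579 and 312 (3.13 ± 0.24, 8.77-fold, adjusted p = 2.9e-08). The macrophage elastase gene Mmp12 had 5683, 5911 and 5573 against 1503, 689 and 586 (6.41-fold), and the matrix protein gene Ecm1 2302, 2022 and 2159 against 470, 265 and 434 (5.14-fold). So genes of proteases and of a protease inhibitor were higher on the same arrays. Of 14 tested protease inhibitor genes 6 were higher and 2 lower (57.1% called, median 0.41). The serpin genes Serpinf1 (2525, 2967 and 1991 against 341, 402 and 313, 6.28-fold) and Serpinb6a (600 to 716 against 95.6 to 143) led, and Cst7, which encodes cystatin F, was 3.00-fold lower.

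Fibroblast markers moved with these lists, and their part in the result was not tested. Of 8 tested fibroblast markers 7 were called higher in CD14hi moDC, and the summed signal of all 10 on the list ran from 6149 to 7021 against 1973 to 2232. Mgp had 3690 to 4658 against 908 to 1454, Col3a1 160 to 405 against 95.9 to 118 and Dcn 104 to 182 against 39.9 to 50.2. Pdgfra (80.4 to 110 against 24.3 to 48.6) and Lum (at most 23.1 on the 6 arrays) did not pass the filter. Sparc stands on both the matrix and the fibroblast list.

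Genes that handle lipid, iron and haem were also higher in CD14hi moDC. Phagocytes that clear cells must store or export cholesterol and recycle haem iron, and the liver X receptor pathway governs much of the former. Of 26 tested genes of cholesterol efflux and lipid handling, 12 were higher and 3 lower (57.7% called, median 0.44). Ch25h, the enzyme that makes 25-hydroxycholesterol, had 2216, 1899 and 1365 against 250, 116 and 112 (3.20 ± 0.25, 9.18-fold, adjusted p = 3.8e-08). It was at most 330 in Ly6Chi moDC and 173 in CD103+ cDC, and CD14hi moDC exceeded Ly6Chi moDC by 2.47. Ch25h was named for its rise on the same CD14hi moDC arrays, so this value is a description. The lipid-sensing receptor gene Trem2 had 1421, 1649 and 1008 against 66.9, 40.6 and 101, the lipoprotein lipase gene Lpl 10454, 12216 and 13212 against 3587, 2562 and 1832 (4.57-fold), and Nr1h3, which encodes liver X receptor alpha, 1653, 1772 and 1353 against 426, 464 and 469 (3.25-fold). All 3 also had high signals in Ly6Chi moDC, at 984 to 1462, 8131 to 9073 and 1197 to 1964. The efflux pump gene Abcg1 was not called (0.25 ± 0.15, adjusted p = 0.31).

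Of 21 tested iron and haem genes 10 were higher and 1 lower (52.4% called, median 0.41). The 10 became 7 to 8 without 1 array at a time. Hmox1, the enzyme that opens haem, had 3198, 2702 and 3245 against 835, 393 and 533 (2.34 ± 0.23, 5.05-fold, adjusted p = 9.5e-07). Blvrb, which encodes biliverdin reductase B, had 1699, 1899 and 1854 against 549, 352 and 307 (4.23-fold). The phagosomal metal exporter gene Slc11a1 had 6965, 7468 and 5009 against 1056, 1469 and 1476 (4.70-fold), and the endosomal importer gene Slc11a2 1724, 976 and 1313 against 423, 373 and 416 (2.99-fold). Slc11a2 was not higher in Ly6Chi moDC than in CD103+ cDC (443 to 657 against 401 to 857, log2 difference 0.00, adjusted p = 1.0), and the difference of the differences was called (adjusted p = 0.0015).

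Among lipid mediator genes, the balance of enzymes differed. Of 13 tested eicosanoid genes 6 were higher and 1 lower (53.8% called, median 0.65). Pla2g7, which inactivates platelet activating factor, had 2178, 2312 and 2076 against 366, 304 and 311 (5.95-fold). Hpgds, the haematopoietic prostaglandin D synthase, had 1079, 1131 and 909 against 283, 84.7 and 126 (2.45 ± 0.27, 5.45-fold, adjusted p = 3.5e-06) and was at 77.1 to 99.7 in Ly6Chi moDC and 132 to 242 in CD103+ cDC. Lta4h, which makes leukotriene B4, was the member that fell, with 434, 623 and 602 against 1123, 1528 and 1225 (2.23-fold lower). The inducible cyclooxygenase gene Ptgs2 had 2362 to 5225 against 1718 to 3304 and was not called (adjusted p = 0.21), nor was Alox5ap (6500 to 9406 against 8608 to 9464, adjusted p = 0.46). The prostaglandin E receptor gene Ptger2 was 3.23-fold higher, with 275, 258 and 330 against 71.4, 35.8 and 58.3.

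Macrophage markers stood beside these groups, and their part in the result was not tested. Of 13 tested markers of interstitial lung macrophages, 11 were higher in CD14hi moDC, with a summed signal of 78037 to 90175 against 14183 to 16741; the list shares complement and Pf4 genes with the core lists left out here. Folr2 was at 290 to 513 against 46.1 to 74.8, Stab1 at 2815 to 3902 against 398 to 606 and Lyve1 at 87.7 to 188 against 33.3 to 62.0, while Timd4 (144 to 337 against 257 to 429) and Cd163 (458 to 747 against 315 to 580) were not called. Of 12 tested alveolar macrophage markers 2 were higher, Mrc1 and Pparg. Siglecf (314 to 447 against 341 to 529) was not called, and the summed signal of that list overlapped (8947 to 13040 against 5096 to 14914).

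**Figure D2:**
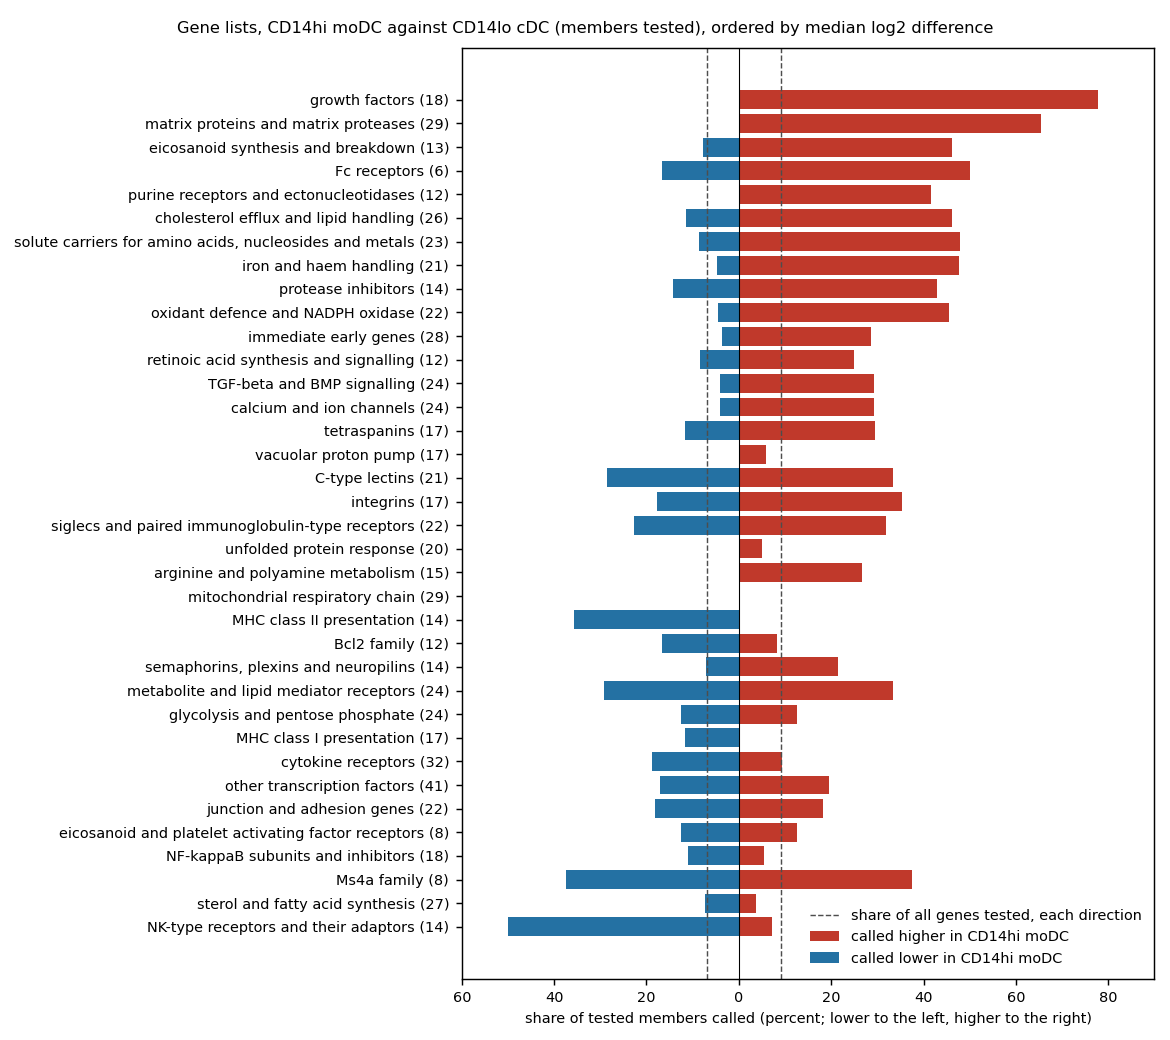
Share of the tested members of 36 gene lists called higher (right) or lower (left) in CD14hi moDC, in percent, with the number tested in brackets and dashed lines at the shares of all genes tested, 9.24% and 6.95%. Growth factors and matrix genes reach farthest to the right and hold no member called lower, NK-type receptors reach farthest to the left, and the respiratory chain has no called member.

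Genes of surface receptors were called in both directions. NK-type receptors are lectin-like or immunoglobulin-like proteins that tune killing by NK cells. Of 14 tested genes for them and their adaptors, 7 were lower in CD14hi moDC, against 6.95% of all genes called lower, and 1 was higher (median -0.67). The count of 7 was the same without each of the 6 arrays in turn. Klrd1, which encodes CD94, had 6003, 6493 and 6758 in CD14lo cDC against 801, 921 and 1386 (6.10-fold lower in CD14hi moDC). Cd244a (2B4) had 6254, 6371 and 6777 against 1885, 1643 and 2127 (-1.76 ± 0.13, adjusted p = 1.5e-08), and Klrk1 (NKG2D) 3324, 3149 and 4850 against 873, 1198 and 1454 (-1.64 ± 0.20, adjusted p = 8.8e-06). All 3 had high signals in CD103+ cDC too, from 2388 to 2830, 4191 to 4418 and 2539 to 3624. The higher member, Cd226, was named after its values were seen and its call was lost without CD14hi moDC replicate 3, CD14lo cDC replicate 2 or CD14lo cDC replicate 3.

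Several members of the NK cell marker list were near the bottom of the signal range in both populations and others were not, and the part of NK cells was not tested. Ncr1 was at most 22.6, Nkg7 46.5, Eomes 25.9 and Gzmb 36.1 on the 6 arrays, and none passed the filter. Of 5 tested NK cell markers 3 were lower in CD14hi moDC, Cd7, Klrd1 and Tbx21, and the summed signal of the list was 1983 to 2602 against 8989 to 10669. Tbx21 was at 27.4 to 126 against 444 to 530, and Prf1 (869 to 1017 against 1020 to 1431) was not called.

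Of 21 tested C-type lectin genes, 7 were higher and 6 lower (61.9% called). Clec4d, which binds mycobacterial glycolipid, had 4485, 3239 and 3613 against 727, 192 and 635 (7.51-fold), and Clec5a, an activating myeloid lectin, 1524, 1941 and 1578 against 482, 338 and 281 (4.21-fold). The galactose lectin gene Clec10a had 629, 614 and 1221 against 4560, 6426 and 6073 (-2.77 ± 0.28, adjusted p = 1.4e-06). Cd209a, the mouse relative of DC-SIGN, had 1605, 2055 and 2657 against 7162, 6704 and 6756 (-1.71 ± 0.39, adjusted p = 0.0040), and its relative Cd209d 248, 328 and 363 against 1158, 1076 and 1250 (3.36-fold lower). CD14lo cDC exceeded CD103+ cDC by 4.96, 4.75 and 3.97 for Clec10a, Cd209a and Cd209d. These genes were named for their difference on the same CD14lo cDC arrays, so these values are a description. Clec4d was higher again in Ly6Chi moDC (7130 to 7580, adjusted p = 0.049), whereas no difference between the monocyte-derived populations was called for Clec5a (1715 to 1984 in Ly6Chi moDC, adjusted p = 0.74).

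Siglecs, which bind sialic acid, also had members called in either direction. Siglec1, the sialoadhesin of tissue macrophages, had 2101, 1849 and 1074 against 288, 152 and 306 (5.74-fold), and Siglece 4902, 5594 and 4713 against 1745, 1542 and 1475 (3.13-fold). Siglecg, known from B cells, had 680, 770 and 1090 against 2330, 2810 and 2207 (2.82-fold lower). In all, 7 of 22 tested siglec and paired receptor genes were higher and 5 lower (54.5% called). The 7 became 4 without CD14hi moDC replicate 1 or CD14lo cDC replicate 3, and the 5 became 3 without CD14hi moDC replicate 2 or CD14lo cDC replicates 2 or 3. The Fc receptor-like gene Fcrls, known from microglia, had 3658, 5623 and 4413 against 901, 699 and 335 (log2 difference 2.81 ± 0.36), and the activating receptor gene Fcgr4 2953, 2897 and 2144 against 947, 1149 and 1306 (2.29-fold). Of 6 tested Fc receptor genes 3 were higher and 1 lower (66.7% called). The lower one was Fcrl1 (1.84-fold), whose call was lost without CD14hi moDC replicates 2 or 3 or CD14lo cDC replicates 2 or 3. Fcrl1 was above the array median on 3 CD14lo cDC and 2 Ly6Chi moDC arrays, so it passed the filter only with CD14lo cDC.

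Adhesion genes changed in both directions. Integrin and junction proteins hold cells to matrix and to epithelium. The integrin beta 5 gene Itgb5 had 3501, 3397 and 2922 against 630, 742 and 749 (4.39-fold) and the alpha 6 gene Itga6 887, 993 and 824 against 204, 217 and 211 (3.64-fold). In contrast Itgae, the CD103 chain that pairs with beta 7 and binds E-cadherin, had 162, 127 and 131 against 1126, 974 and 466 (4.50-fold lower), far below CD103+ cDC (12449 to 17620). Of 17 integrin genes tested, 6 were higher and 3 lower (52.9% called). Cdh1, E-cadherin itself, had 234, 341 and 472 against 2422, 2894 and 2094 (-2.69 ± 0.22, adjusted p = 6.6e-08), and the epithelial adhesion gene Epcam 132, 113 and 240 against 724, 431 and 639 (3.10-fold lower, called for 1 of its 2 probe sets). Vcam1, a ligand for alpha 4 integrins, had 1909, 1027 and 1295 against 195, 157 and 105 (7.11-fold), and the cell adhesion gene Cadm1 3647, 2641 and 2317 against 313, 217 and 255 (9.27-fold). Vcam1 was at most 260 in Ly6Chi moDC and 224 in CD103+ cDC. Of 22 junction and adhesion genes tested, 4 were higher and 4 lower (36.4% called).

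Receptors for nucleotides and lipid metabolites completed the surface pattern. Of 12 tested purine receptor and ectonucleotidase genes 5 were higher and none lower (41.7% called, median 0.48), with 1 lower without CD14hi moDC replicate 2. P2rx7, the ATP-gated channel upstream of the inflammasome, had 2076, 2074 and 1615 against 522, 455 and 514 (1.84 ± 0.19, 3.59-fold, adjusted p = 1.9e-06), and P2ry12, an ADP receptor of microglia and platelets, 332, 408 and 262 against 75.7, 91.1 and 89.3 (2.80-fold). The ectonucleotidase gene Entpd1 was not called (1810 to 2466 against 1429 to 2194, adjusted p = 0.27). Of 24 tested receptors for metabolites and lipid mediators, 8 were higher and 7 lower (62.5% called). The chemerin receptor gene Cmklr1 had 2021, 1762 and 1238 against 267, 224 and 245 (5.74-fold), and Fpr2, a formyl peptide receptor, was 3.11-fold higher. Sphingosine phosphate receptors, which steer exit from tissue, split: S1pr1 had 197, 206 and 158 against 29.3, 32.1 and 8.21 (3.26-fold), while S1pr5, above the array median in CD14lo cDC alone, had 6.69, 54.6 and 14.4 against 100, 633 and 227 (4.20-fold lower).

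**Figure D3:**
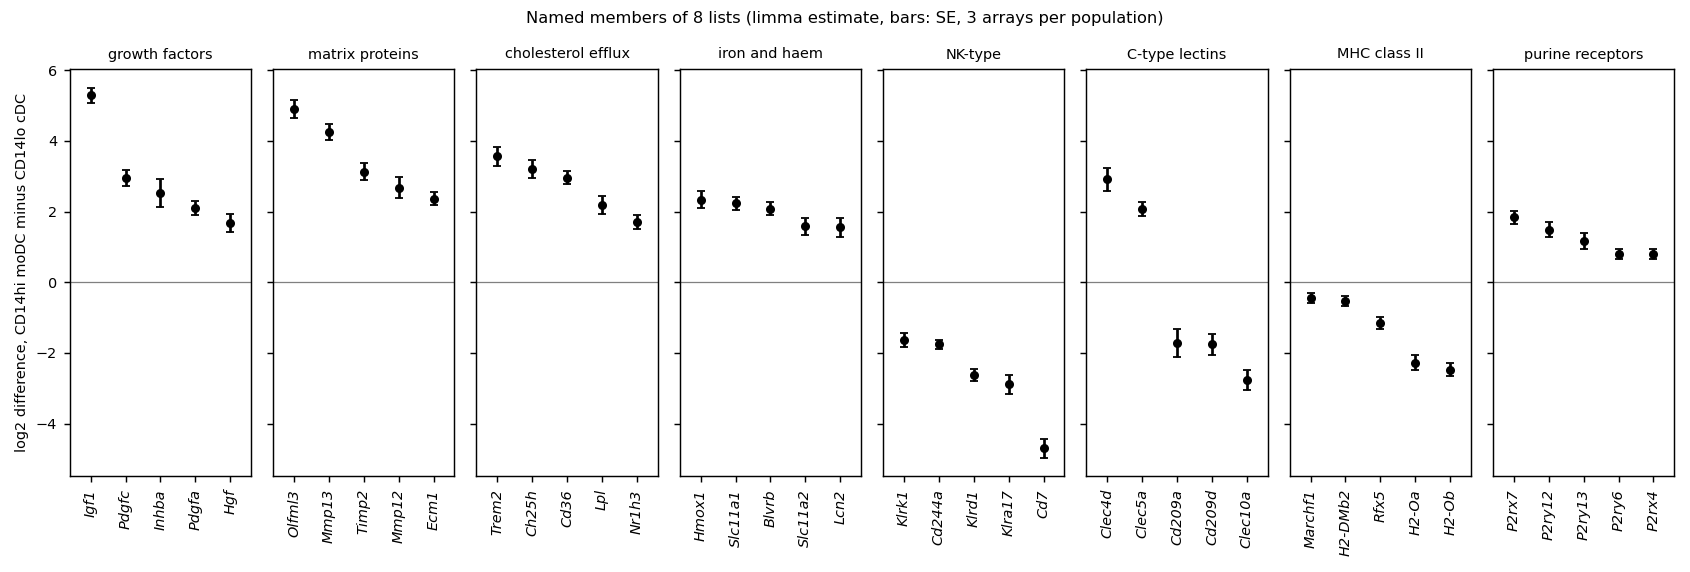
Log2 difference of CD14hi moDC minus CD14lo cDC (points, limma estimate with SE bars, 3 arrays per population) for the named members of 8 lists. The 5 growth factor and 5 matrix genes lie between 1.67 and 5.29, the 5 NK-type receptor genes between -4.70 and -1.64, and the C-type lectins on either side of 0.

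Of 14 tested class II presentation genes 5 were lower in CD14hi moDC, against 6.95% of all genes called lower, and none was higher. Peptides are loaded on class II molecules by H2-DM, which H2-O holds back. The structural genes H2-Aa (19697 to 27944 against 19549 to 20980), H2-Ab1 (16172 to 27664 against 16472 to 18371) and Cd74 (21578 to 36987 against 20321 to 25357) were not called, with adjusted p of 0.41, 0.44 and 0.23. The H2-O chains were lower in CD14hi moDC on every array. H2-Ob had 626, 700 and 667 against 3253, 4284 and 4242 (-2.47 ± 0.18, 5.53-fold lower, adjusted p = 2.8e-08), and H2-Oa 476, 750 and 1164 against 3550, 3748 and 4175 (-2.27 ± 0.22, 4.84-fold lower, adjusted p = 5.5e-07). Both were also high in CD103+ cDC, H2-Ob at 3778 to 4581, where no difference from CD14lo cDC was called (-0.12, adjusted p = 0.69), and H2-Oa at 1728 to 2077. Rfx5, a class II promoter factor, was 2.24-fold lower, with 836, 785 and 940 against 1766, 2356 and 1829. The 5 lower genes became 3 to 4 without 1 array at a time. They were 3 without CD14hi moDC replicate 1, where 2 were higher. Of 17 class I genes 11.8% were called, against 16.2% of all genes. The 2 called were lower, Tap1 (1.54-fold) and Psmb9 (1.33-fold), which became 0 without CD14hi moDC replicate 1, where 1 was higher, and 1 without CD14hi moDC replicate 2 or CD14lo cDC replicates 1 or 3. Tap1 had another probe set of opposite sign.

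Of 41 tested transcription factor genes 8 were higher and 7 lower, so 36.6% were called against 16.2% of all genes. Mitf, a regulator of lysosome genes, had 1726, 1668 and 1428 against 481, 373 and 461 (1.76 ± 0.22, 3.40-fold, adjusted p = 1.4e-05). Ets1 had 669, 390 and 506 against 91.7, 161 and 57.6 (3.79-fold, called for 1 of its 2 probe sets) and was at most 98.0 in Ly6Chi moDC and 121 in CD103+ cDC. The aryl hydrocarbon receptor gene Ahr had 669, 536 and 706 against 1745, 1725 and 1781 (2.64-fold lower), and Bach2, a repressor of effector genes, 331, 458 and 722 against 1260, 902 and 1925 (2.54-fold lower). The 8 became 5 without CD14hi moDC replicate 3 and 4 without CD14lo cDC replicate 2, and the 7 became 4 without CD14hi moDC replicates 1 or 2 or CD14lo cDC replicates 1 or 3. Klf4 and Hif1a were not called (adjusted p = 0.27 and 0.98). Of 28 immediate early genes, which respond within minutes to stimuli, 8 were higher and 1 lower (32.1% called). The 8 became 5 without CD14hi moDC replicate 2. Egr2 had 5082, 5593 and 5285 against 2776, 3515 and 2170 (1.90-fold) and Dusp6 2220, 2634 and 1749 against 757, 863 and 736 (2.67-fold). The lower one, Nr4a2, had arrays that overlapped (1896 to 3747 against 3496 to 5872). Of its 6 kept probe sets 2 were called lower and 1 had the opposite sign, and its call was lost without CD14hi moDC replicates 1 or 2 or CD14lo cDC replicates 2 or 3, whereas 2 genes were lower without CD14hi moDC replicate 3.

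Signalling genes of the TGF-beta family leaned toward CD14hi moDC on the receptor side. Of 24 tested 7 were higher and 1 lower, against 9.24% and 6.95% of all genes. Bmpr1a, among the 7, was above the array median on CD14hi moDC arrays alone, so it entered the test only through them. The receptor genes Tgfbr1 (5867, 5584 and 4576 against 1843, 2212 and 1861, 2.66-fold) and Tgfbr2 (3754, 4157 and 2616 against 1515, 1685 and 1676, 2.09-fold) were higher, and Smad7, an inhibitor induced by the pathway, was lower (773, 399 and 408 against 1061, 1328 and 914, 2.06-fold). Of 32 cytokine receptor genes 3 were higher, a share near the 9.24% of all genes, and 6 lower, against 6.95%. The interleukin 1 antagonist gene Il1rn was 2.56-fold higher, with 9304, 6936 and 10537 against 4817, 1888 and 4299, whereas the decoy receptor gene Il1r2 was 3.97-fold lower, with 448, 306 and 1034 against 2030, 1917 and 2878. The share of the 18 NF-kappaB genes called, 16.7%, was near the 16.2% of all genes. The 1 called higher was Ikbke, an inducible kinase (410 to 535 in CD14hi moDC, 3.10-fold), and 2 were higher without CD14hi moDC replicate 2. Bcl3 (1.69-fold) and Nfkbie (1.32-fold) were lower, and the call of Nfkbie was lost without CD14hi moDC replicates 1 or 2 or CD14lo cDC replicates 2 or 3.

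No gene of the respiratory chain was called, whereas transport and redox genes were. Of 29 tested genes of the mitochondrial respiratory chain none was called by limma, also without each of the 6 arrays in turn, and the median was 0.01. Glycolysis and pentose phosphate genes had 3 higher and 3 lower of 24, so 25.0% were called against 16.2% of all genes. The 3 lower became 0 without CD14hi moDC replicates 1 or 2 or CD14lo cDC replicate 1 and 1 without CD14lo cDC replicate 3. The myeloid hexokinase gene Hk3 was 2.24-fold higher, with 862, 698 and 956 against 312, 346 and 373. Sterol and fatty acid synthesis genes had a median of -0.36, with 1 of 27 higher and 2 lower. The share called, 11.1%, was below the 16.2% of all genes. Of 22 oxidant defence genes 10 were higher and 1 lower (50.0% called, median 0.31). The secreted peroxidase gene Gpx3 had 1716, 1580 and 1680 against 505, 285 and 333 (4.12-fold). The extracellular dismutase gene Sod3 had 1238, 1078 and 811 against 309, 352 and 173 (3.39-fold). Srxn1 had 1196, 1244 and 1330 against 529, 399 and 466 (2.55-fold). The lower one, Gpx4, was named after its values were seen and its call was likewise lost in 5 of the 6 fits without 1 array and kept without CD14hi moDC replicate 3.

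Of 23 tested solute carrier genes 11 were higher and 2 lower (56.5% called, median 0.43). The 2 became 1 without CD14hi moDC replicate 1 or CD14lo cDC replicates 1 or 2. After Slco2b1 came Slc7a8, an exchanger of neutral amino acids, with 2184, 1935 and 1228 against 235, 155 and 215 (7.16-fold), and the creatine transporter gene Slc6a8 (2.61-fold). Of 24 ion channel genes 7 were higher and 1 lower (33.3% called), and the 7 became 4 without CD14hi moDC replicate 1. The inward rectifier potassium channel gene Kcnj10 had 748, 640 and 337 against 7.28, 8.62 and 4.15 (10.5-fold). Kcnj10 was above the array median on 2 Ly6Chi moDC arrays besides the 3 of CD14hi moDC. It too entered the test only through CD14hi moDC, so its signals are a description. The calcium release channel gene Ryr1 had 515, 659 and 1011 against 1583, 1453 and 1634 (2.14-fold lower). Among genes of arginine and polyamine metabolism, 4 of 15 were higher and none lower (26.7% called). Retnla, a secreted resistin-like protein often measured beside arginase, had 10126, 11387 and 10592 against 2506, 1478 and 578 (2.99 ± 0.35, 7.96-fold, adjusted p = 6.2e-06). Arg1, the arginase, had 105, 119 and 282 against 35.7, 8.53 and 66.0 (2.47-fold), and 2883 to 3460 in Ly6Chi moDC. Retnla was at 272 to 489 in Ly6Chi moDC, and CD14hi moDC exceeded Ly6Chi moDC by 4.68 on the log2 scale. Retnla was named for its rise on the same CD14hi moDC arrays, so this value is a description.

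Tetraspanin genes had 5 of 17 higher and 2 lower (41.2% called). Cd81, a partner of integrins, had 13253, 15278 and 14598 against 3973, 3432 and 2069 (4.65-fold), and Tspan13 was 3.02-fold lower. Retinoic acid genes had 3 of 12 higher and 1 lower (33.3% called), with Aldh1a1 at 3.02-fold and the retinal reductase gene Dhrs3 at 2.72-fold. Aldh1a1 was above the array median on 2 CD14hi moDC arrays, 1 of CD103+ cDC and 1 of Ly6Chi moDC. It therefore passed the filter only with CD14hi moDC. The lower one was the transglutaminase gene Tgm2. Its call was lost in 5 of the 6 fits without 1 array and kept without CD14hi moDC replicate 3. In some lists the share called was below that of all genes. Of 17 proton pump subunits 1 was higher, Atp6v1b2 (1.53-fold, called for 2 of its 4 probe sets). Of 20 unfolded protein response genes 1 was higher, Ppp1r15a (1.55-fold), and this call was lost without CD14hi moDC replicates 1 or 3 or CD14lo cDC replicate 2. Hspa5, the endoplasmic reticulum chaperone, was not called (adjusted p = 0.63).

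4 lists held few tested members, and single arrays moved their counts. Semaphorin and plexin genes, which guide migrating cells, had 3 of 14 higher and 1 lower (28.6% called). Sema4b had 1014, 640 and 449 against 167, 95.1 and 132, and Sema4f was lower and dim, with 8.40, 1.39 and 2.24 against 139, 145 and 83.0. The 3 became 1 without CD14hi moDC replicate 1 or CD14lo cDC replicate 3, and the 1 became 2 without CD14hi moDC replicate 3 or CD14lo cDC replicate 2. Genes of the Ms4a family of membrane proteins had 3 of 8 higher and 3 lower, with Ms4a4d (217, 246 and 144 against 54.7, 70.6 and 47.8) and Ms4a4c (3406, 2435 and 2823 against 4980, 6293 and 5670) at either end. The 3 higher became 1 without CD14hi moDC replicate 1 or CD14lo cDC replicate 3, and the 3 lower became 1 without CD14lo cDC replicate 3. Of 12 Bcl2 family genes, which set the threshold for cell death, 1 was higher and 2 were lower (25.0% called against 16.2% of all genes). The higher one was Bcl2l1 (1125, 1074 and 864 against 541, 263 and 460, 2.34-fold), and the lower ones were Pmaip1 (1.52-fold) and Bid (1.47-fold). The 1 became 2 without CD14lo cDC replicate 1, and the 2 became 1 without CD14hi moDC replicates 1 or 3 or CD14lo cDC replicates 2 or 3. The fourth list is of 8 eicosanoid receptor genes (25.0% called against 16.2% of all genes). Beside Ptger2, Ptger3, above the array median in CD14lo cDC alone, was lower, with 61.4, 63.5 and 59.1 against 177, 177 and 118. Ptger3 lost its call without CD14lo cDC replicates 1 or 2.

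The other pair of populations, which shares no array with this one, showed where these differences were and were not repeated. The 1010 genes higher in CD14hi moDC than in CD14lo cDC were 9.24% of the genes tested. Of them 591, or 5.41% of the genes tested, were also called higher in Ly6Chi moDC than in CD103+ cDC. In that pair 24.3% of all genes were called higher, a share to be set against 591 of 1010. Another 294 (2.69%) were not called there, and for 181 of these (1.66%) the difference of the differences was called. The 760 lower genes were 6.95% of the genes tested, and 357 of them (3.27% of the genes tested) were also lower in that pair. In it 23.2% of all genes were called lower, a share to be set against 357 of 760. There 245 (2.24%) were not called, 135 of them (1.23%) with a called difference of the differences. The difference of the differences was called for 3600 genes (32.9%). Genes called in opposite directions in the pairs, and for the difference, numbered 283 (2.59%), of which 125 were higher in CD14hi moDC (1.14%) and 158 lower (1.45%).

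Genes of opposite direction did not all follow one order of the populations. The fatty acid and apoptotic cell receptor gene Cd36 had 7164, 7952 and 7107 in CD14hi moDC and 972, 1118 and 680 in CD14lo cDC, but 6996 to 8284 in CD103+ cDC and 822 to 1270 in Ly6Chi moDC. The tetraspanin gene Cd81 followed the same order, with 12222 to 17066 in CD103+ cDC and 3695 to 3921 in Ly6Chi moDC, as did Cadm1, with 2967 to 4595 and 25.9 to 65.3. Aldh1a2, the enzyme that makes retinoic acid, had 4744, 4740 and 5642 in CD14hi moDC against 3708, 2829 and 2673 (1.64-fold, adjusted p = 0.0019), 4095 to 4742 in CD103+ cDC and 122 to 142 in Ly6Chi moDC, so Ly6Chi moDC stood apart from the other 3 populations. On the other side, Plac8 had 6718, 8153 and 9320 in CD14lo cDC and 1227, 919 and 2686 in CD14hi moDC, against 8778 to 12275 in Ly6Chi moDC and 581 to 1001 in CD103+ cDC. Mefv, the pyrin inflammasome gene, had 1761, 1960 and 2184 against 371, 349 and 706 and was at 1313 to 2435 in Ly6Chi moDC. Clec10a, Cdh1, Ifitm6 and Pram1, named above among the largest falls, were also called higher in Ly6Chi moDC than in CD103+ cDC, by 2.45, 2.58, 2.92 and 1.46 on the log2 scale.

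**Figure D4:**
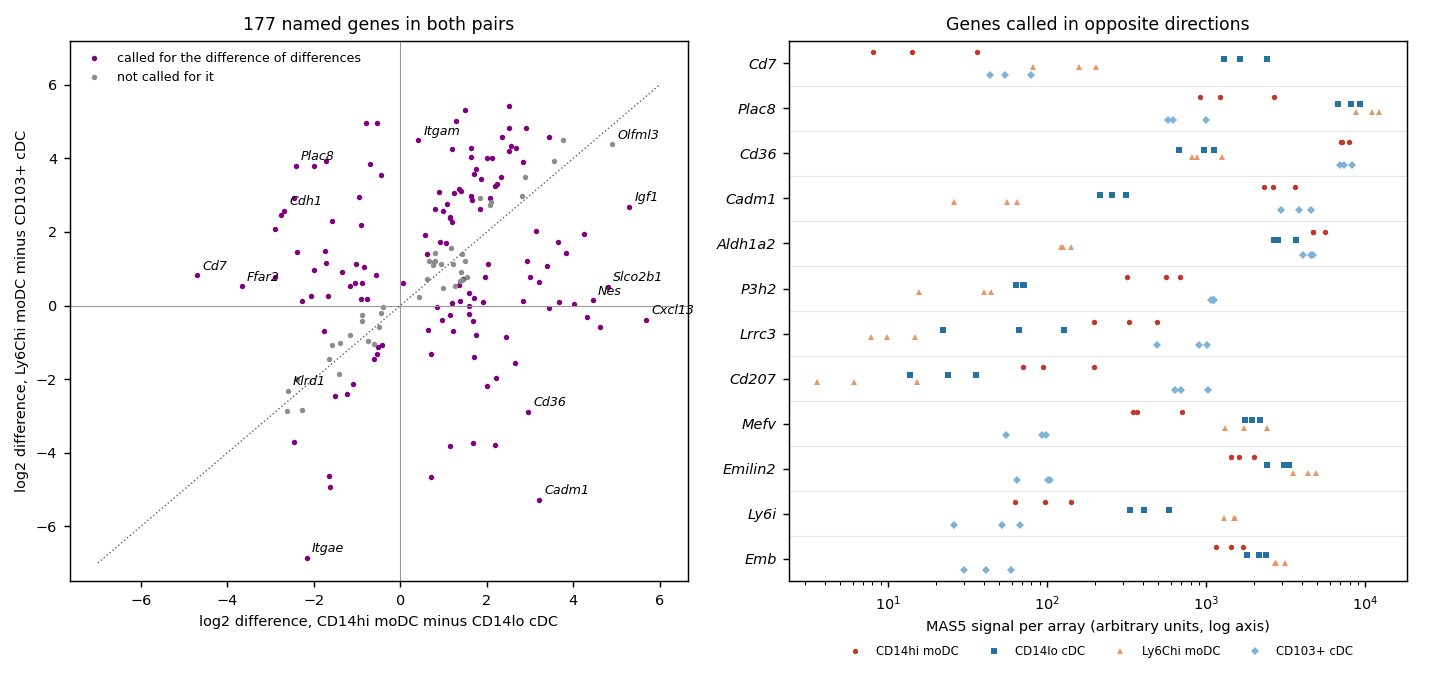
Left, log2 difference of CD14hi moDC minus CD14lo cDC (horizontal) against Ly6Chi moDC minus CD103+ cDC (vertical) for the 177 named genes, coloured by whether the difference of the differences was called; the dotted line marks equal differences. Right, MAS5 signal per array (log axis) of 12 genes of opposite direction: Cd36 and Cadm1 are high in CD14hi moDC and CD103+ cDC, and Plac8 and Mefv in CD14lo cDC and Ly6Chi moDC.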

How the data were processed

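Gene expression was measured on Affymetrix arrays of 45101 probe sets, 1 array for each of 12 samples. The deposited values are MAS5 intensities on a linear scale, per the submitters' processing notes, with no version given in the sources used here; on each array the mean after trimming 2% at each end was 500.003. Detection calls were not used here. Of the probe sets, 64 controls were left out, 34945 had 1 gene symbol, 932 several and 9160 none. Probe sets with a signal over the array median on at least 3 of 12 arrays were kept, and the kept probe set of highest mean stood for its gene (10934 genes). Values were tested as log2(signal + 50) with limma 3.58.1 in R 4.3.3 (lmFit and eBayes with an intensity trend, 4 groups, 8 residual degrees of freedom, two-sided, Benjamini-Hochberg over all genes). The script was tested on simulated data. Depth does not apply to arrays.

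The members and gene lists were chosen with earlier results of these data known. Named genes were the 15 largest rises and 15 largest falls among called genes without overlap and outside the chemokine, complement and lineage lists, up to 5 called members of each functional list by size of difference, the sort and label markers, and the 6 genes with the largest difference of differences in each direction among those called in opposite directions. Of 177 such genes, 81 had several kept probe sets, of which all were called in the same direction for 60. Alternatives were other scalings, pseudocounts, filters and probe set rules, no intensity trend, a replicate block, only the 6 arrays, and leaving out each array; centring at the median of all probe sets was chosen after seeing the data.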

Additional observations from a re-analysis of the deposited data

Results flagged for a closer look

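Of the 283 genes called by limma in opposite directions in CD14hi moDC minus CD14lo cDC and Ly6Chi moDC minus CD103+ cDC, and for the difference between them, 12 are given here, the 6 with the largest such difference in each direction. The pairs share no array. The differences of differences were positive on the log2 scale for Cadm1 (8.49), P3h2, a collagen prolyl hydroxylase gene (6.01), Cd36 (5.85), Lrrc3 (5.44), Aldh1a2 (5.37) and Cd207, the langerin gene (4.96). P3h2 had 686, 561 and 317 in CD14hi moDC against 70.7, 72.1 and 64.4, with 1076 to 1117 in CD103+ cDC and 15.6 to 44.4 in Ly6Chi moDC. Cd207 was dim in this pair, with 197, 94.3 and 71.2 against 35.9, 13.8 and 23.8, and reached 639 to 1035 in CD103+ cDC.

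They were negative for Plac8 (-6.22), Mefv (-5.80), Emilin2, a matrix glycoprotein gene (-5.74), Ly6i (-5.64), Emb (-5.52) and Cd7 (-5.52). Emilin2 had 1446, 1614 and 1996 in CD14hi moDC against 2414, 3313 and 3109, with 3536 to 4900 in Ly6Chi moDC and 64.7 to 105 in CD103+ cDC. Emb, with 1164, 1444 and 1711 against 1821, 2145 and 2397, was close to the threshold in this pair (limma adjusted p = 0.038), and 1 of its 3 kept probe sets was called. Cd7 rose by 0.82 in the other pair at low signals, so most of its value comes from the -4.70 between CD14hi moDC and CD14lo cDC.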

How the results depend on the processing

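Testing each probe set on its own called 2900, 1673 of them higher and 1227 lower. The stricter filter left 644 higher, and a minimum of 2-fold left 763, with 523 higher and 240 lower. Without 1 array at a time the calls ran from 1301 to 1616, with 799 to 933 higher and 502 to 683 lower. Itgax, not called, turned to -0.03 with centring over all probe sets and -0.04 with quantile normalization. Median centring over kept probe sets gave 928 higher and 864 lower, and quantile normalization 977 and 837. With the replicate block 1849 genes were called, 1036 higher and 813 lower. Deviations of same-numbered arrays correlated at -0.0343, 0.21 and 0.145, and those of arrays with different numbers at -0.221 to 0.107. These values do not settle whether the numbers pair the samples. The labels do not say so, and the main fit did not take the numbers as a pairing. Of the 175 named genes that were called, 147 were tested in all 17 alternatives, and 126 of these kept direction and call in each. The stricter filter left out the other 28, of which 22 kept both in the alternatives that tested them. In all, 27 lost the call in at least 1. The number of arrays and dim signals limit the precision.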

Other observations

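Some markers of other cell types differed between the populations and entered no list above. Cd4, the T helper co-receptor gene, was 3.45-fold higher in CD14hi moDC, while Cd3e, Cd3d and Cd3g were at most 52.6 on the 6 arrays. Ppbp, a platelet chemokine gene, was 4.29-fold higher, while the platelet glycoprotein genes Gp9, Gp1bb and Gp6 were at most 70.3. The surfactant gene Sftpc was 2.07-fold higher, and the vascular growth factor receptor gene Kdr 2.93-fold lower. No tested marker of neutrophils, eosinophils, B cells or plasmacytoid dendritic cells was called by limma.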
